A study of Arabidopsis thaliana with 4 samples.

Results

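In Arabidopsis roots, 52 of the 33565 genes in the expression table had at least 5 FPKM with JA alone, were at least 3-fold lower in each of the other libraries, and were raised less than 2-fold by JA when cytokinin was also given. These members were selected on the measured values of the 4 RNA-seq libraries of the study, each from roots of wild-type Col-0 plants kept on 1/2 MS medium for 7 days: a control library with no hormone, a JA library from medium that held MeJA at 10 μM, a cytokinin library from medium that held the synthetic cytokinin BAP at 50 nM, and a JA/cytokinin library from medium that held both. Expression was given as FPKM, fragments scaled to the exon length of the gene and to the mapped fragments of the library. A gene was kept where its deposited value was at least 5 FPKM with JA and where, on FPKM + 0.1, it was at least 3-fold higher with JA than in each of the other 3 libraries and less than 2-fold higher with JA/cytokinin than with cytokinin. Each condition had 1 library of whole roots, so no difference has a replicate check, no p-value can be given, and fewer cells of a type cannot be told apart from less RNA per cell. The pattern that chose the genes is given here as a description.

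JA is made from plastid lipids, beginning with 13-lipoxygenases, and is perceived as its isoleucine conjugate by a receptor that targets JAZ repressors for degradation, which frees MYC2 and related transcription factors to act at G-box sequences. Cytokinin is perceived by histidine kinases, and the signal passes through histidine phosphotransmitters (AHPs) to type-B response regulators, which switch on the type-A response regulators. In roots, JA inhibits growth and turns on defence proteins and secondary metabolism, while cytokinin restrains the formation of protoxylem in the vascular cylinder.

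Between 98605532 and 115141812 reads were sequenced per library. From the size of a single fragment in low FPKM values, an estimated 87.3% (JA/cytokinin) to 91.8% (cytokinin) of the read pairs were mapped fragments, and 3 fragments on 1 kb of exon corresponded to 0.0711 to 0.0791 FPKM. The intervals given with single values are exact Poisson limits (95%) for the estimated fragments, and they cover only counting error. The median gene differed from control by a factor of 0.986 to 1.03, and annotated rRNA genes held 0.614% to 1.28% of the summed FPKM in 3 libraries and 4.89% in JA/cytokinin. Root markers were present in all libraries, with a summed FPKM of 371.2 to 585.4 over 14 genes. The summed FPKM of 11 shoot markers was 13.19 in control and 1.046 to 2.506 in the others, and that of 11 seed markers was 2.976 to 6.573. In every library except JA most of the seed sum came from SESA4, at 2.49, 1.88, 5.30 and 2.75 FPKM in control, JA, cytokinin and JA/cytokinin. With JA the seed sum was 6.573 FPKM, most of it from the other seed markers. The other seed markers were low but moved in the direction of the members: 8 of the 11 were highest in the JA library, among them SESA1 with 0.0410, 1.13, 0.123 and 0.0733 FPKM and SESA3 with 0, 0.938, 0 and 0 FPKM. On FPKM + 0.1 these 8 were at least 2-fold above control with JA, and none of the 11 was at least 2-fold above cytokinin with JA/cytokinin. No marker of shoots or seeds was a member, since none of them reached 5 FPKM with JA. The part of these differences in the results was not tested.

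The 52 genes were a minority of what JA raised. Of 14846 genes with at least 5 FPKM with JA, 643 were at least 3-fold above control (4.33% of those genes), 1101 at least 3-fold above cytokinin (7.42%) and 593 at least 3-fold above JA/cytokinin (3.99%), and the members met all of these by the rule. Among the 643 genes, 374 (58.2%) were still at least 3-fold higher in JA/cytokinin than in cytokinin, whereas 125 (19.4%) were under 2-fold. The members were the 52 of these 125 that were also 3-fold above cytokinin and above JA/cytokinin in the JA library. The log2 ratio of JA/cytokinin to cytokinin had a median of 1.80 over the 643 genes and of 0.13 over the members (0.21 without the 7 genes described next). The levels of the members with JA ran from 5.10 to 2634 FPKM with a median of 12.3 FPKM, and 20 of them had at least 20 FPKM.

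**Figure D1:**
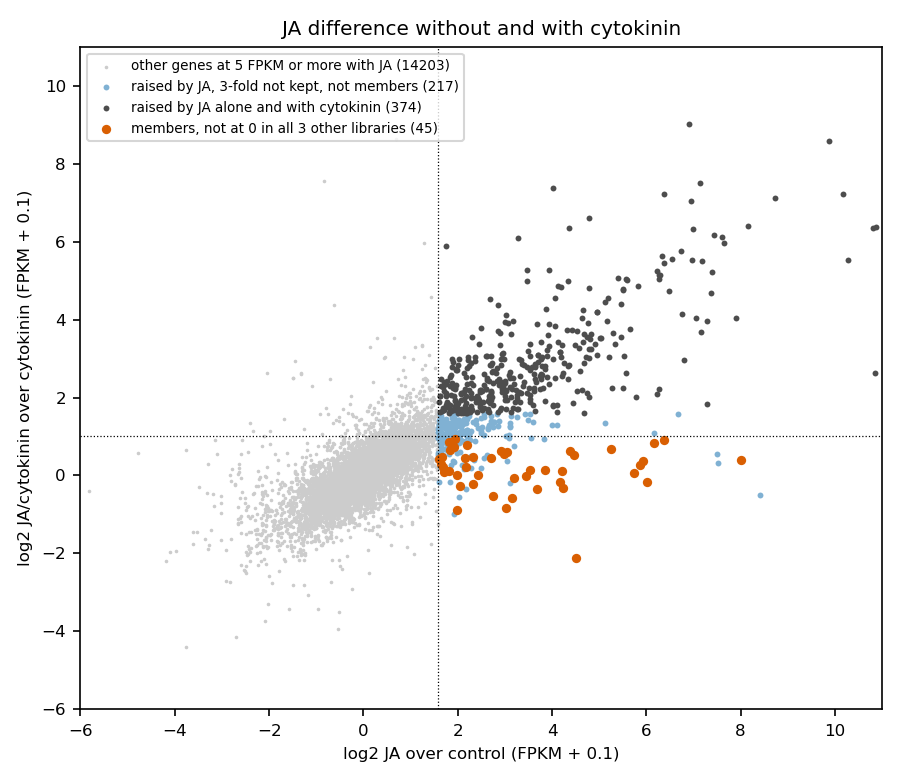
Each point is a gene with at least 5 FPKM in the JA library, placed by its log2 ratio of JA to control (horizontal axis) and of JA/cytokinin to cytokinin (vertical axis), both on FPKM + 0.1. Orange points are the 45 members that were not at 0 in all 3 other libraries, dark points the 374 genes raised at least 3-fold in both comparisons, and dotted lines mark the 3-fold and 2-fold limits of the rule. The members lie to the right of the vertical line and below the horizontal line because they were chosen so.

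A group of 7 members was listed at 0 FPKM in the control, cytokinin and JA/cytokinin libraries, and differs in kind from the rest. AT3G52345, a cysteine tRNA gene, was listed at 2634 FPKM with JA, AT1G74456, a snoRNA gene, at 717.4 FPKM, and AT2G24592, a long noncoding RNA gene, at 256.0 FPKM. The others were AT5G64395 at 217.4 FPKM, AT3G30778 at 11.9 FPKM, AT5G10336 at 9.01 FPKM and AT3G61117 at 5.59 FPKM, none of them with a known function. Of the 7 genes, 5 have an exon length of 72 to 220 nt, and a single fragment of about 160 nt is longer than several of these genes, so that their FPKM cannot be turned into fragments. The 3 shortest are printed to show how little sequence lies behind the highest values of the set; they come from the TAIR10.1 assembly of RefSeq, 5′ to 3′ on the gene strand.
AT3G52345, cysteine tRNA, 72 nt, chr3:19409368-19409439, minus strand: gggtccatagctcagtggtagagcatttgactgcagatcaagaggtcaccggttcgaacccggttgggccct
AT1G74456, snoRNA, 82 nt, chr1:27984745-27984826, minus strand: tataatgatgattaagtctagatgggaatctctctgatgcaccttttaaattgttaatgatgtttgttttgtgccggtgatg
AT5G64395, annotated protein-coding, 96 nt, chr5:25748202-25748297, minus strand: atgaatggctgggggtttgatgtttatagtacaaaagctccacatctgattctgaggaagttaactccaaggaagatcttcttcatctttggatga
Genes of this kind were not particular to JA. The number of genes with at least 5 FPKM in 1 library and 0 in the other 3 was 7 for JA, 14 for control, 12 for JA/cytokinin and 5 for cytokinin, and 5, 3, 9 and 4 of them had exons under 250 nt. The tRNA gene and AT5G64395 also overlap other annotated genes. No fold is given for these 7 genes. The levels described below are those of the other 45, while counts out of 52, promoters and gene lengths include the 7.

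The 45 genes were raised strongly by JA alone. Their log2 ratio of JA to control had a median of 2.99 and ran from 1.60 to 8.01, the latter in AT1G21528. That gene and 3 others (LCR21, AT5G39130 and AT1G14250) were at 0 FPKM in control, so that their ratios were set by the added 0.1, and over the 41 genes above 0 in control the median was 2.75 and the highest ratio 6.38 (AHP4). JA exceeded the highest of the other libraries 3.03-fold to 72.2-fold, with a median of 5.27-fold, and by 10-fold or more in 13 genes. That highest other library was control for 25 genes, JA/cytokinin for 15 and cytokinin for 5. The median log2 ratio of JA/cytokinin to JA was -3.36. In the plot of FPKM by library the JA value stands to the right of the other 3 in each row.

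**Figure D2:**
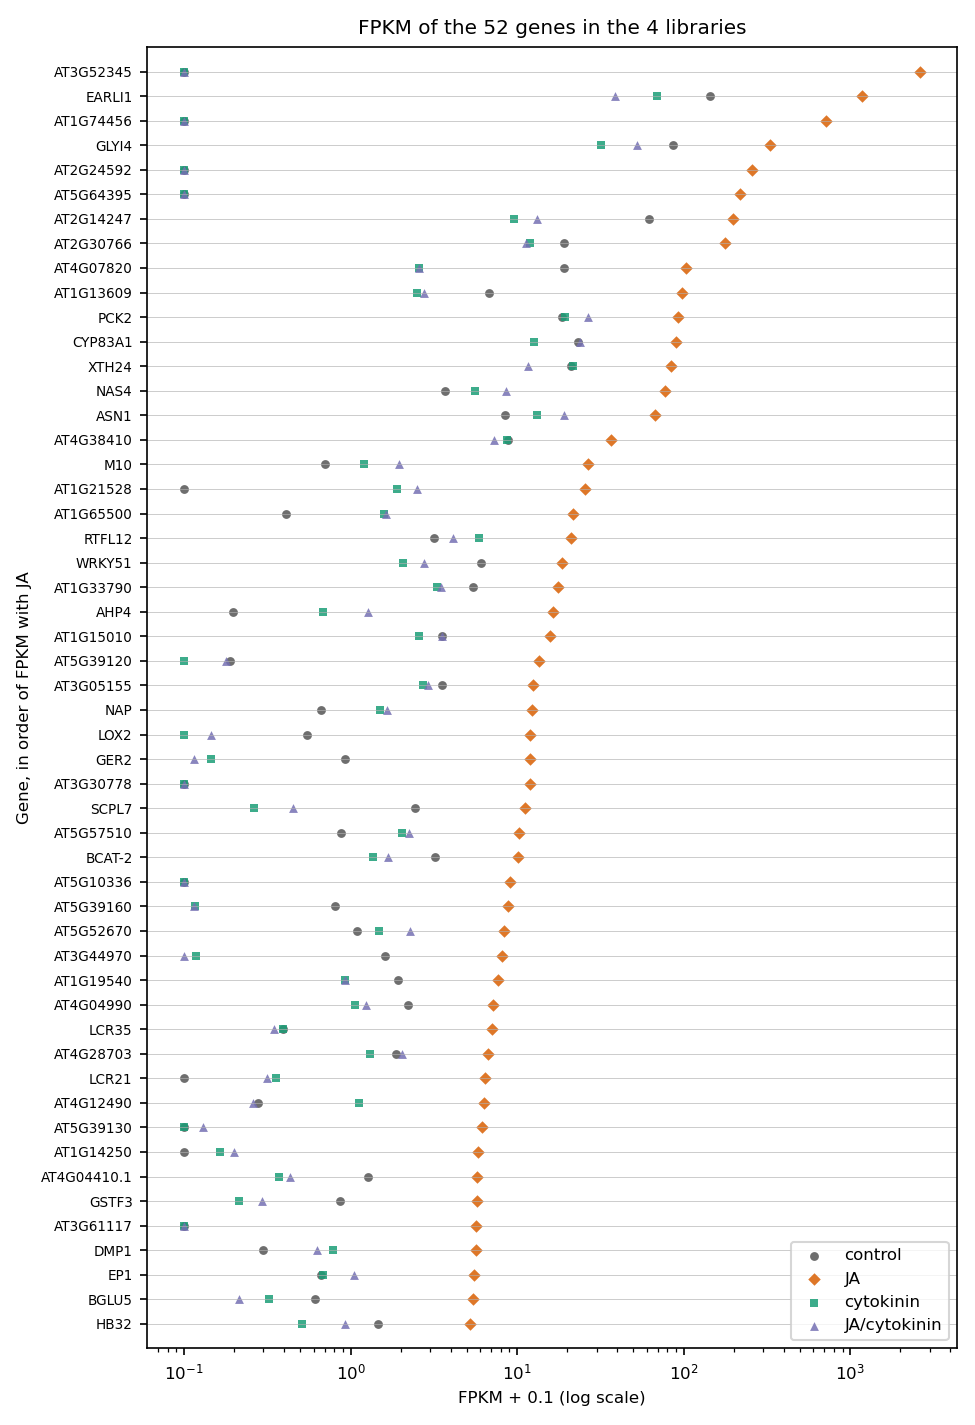
FPKM + 0.1 on a log axis for each of the 52 genes (rows, in order of FPKM with JA) in the control, JA, cytokinin and JA/cytokinin libraries, 1 point per library. The JA points run from 5.10 FPKM (HB32) to 2634 FPKM (AT3G52345), and 7 rows have the other 3 points at 0 FPKM.

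A secreted protein of the cell wall had the highest level among the protein-coding members. EARLI1, a hybrid proline-rich protein of the lipid-transfer type found at the cell wall, had 144.7 FPKM in control, 1179 FPKM with JA, 69.4 FPKM with cytokinin and 38.5 FPKM with JA/cytokinin. JA/cytokinin thus was the lowest library, and the JA library was 8.15-fold above control, the next highest. AT4G07820, a protein of the CAP superfamily to which the PR1 defence proteins belong, had 19.1, 103.7, 2.49 and 2.49 FPKM in the same order. With cytokinin its level was the same with and without JA, and both stood below control by 2.89 on the log2 scale. AT1G13609, a defensin-like peptide, had 6.66, 97.7, 2.40 and 2.65 FPKM, again with both cytokinin libraries below control. The smaller cysteine-rich peptides LCR35 and LCR21 exceeded 1 FPKM only with JA: LCR35 had 0.294, 6.97, 0.292 and 0.246 FPKM, and LCR21 had 0, 6.34, 0.255 and 0.216 FPKM. By annotation keyword these 4 defensin-like or cysteine-rich genes made up 7.69% of the members, against 0.323% of the 14846 genes. AT4G07820 is counted there only because its CAP annotation names cysteine-rich secretory proteins. The closest relative of AT1G13609, AT1G13608 (69.0% identical over the aligned bases), was at 2.14 FPKM with JA and 0 FPKM in the other 3 libraries, below the minimum of the rule.

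EARLI1 lies in a row of lipid-transfer protein genes on chromosome 4, and its neighbours did not share its pattern as a group. AT4G12490, the lipid-transfer gene on one side of it, had 0.178 FPKM in control, 6.21 FPKM with JA, 1.03 FPKM with cytokinin (interval 0.688 to 1.47) and 0.159 FPKM with JA/cytokinin (0.0516 to 0.371). It was the only member at least 2-fold lower with JA/cytokinin than with cytokinin, where 3.54% of the 14846 genes were. On the other side of EARLI1, AZI1, a gene of systemic defence priming, had 164.7, 187.8, 22.1 and 8.31 FPKM, so that it was not raised by JA but was low in both cytokinin libraries. AT4G12510 and AT4G12520 were lower with JA than control, at log2 ratios of -1.74 and -1.34. At the far end of the row, AT4G12545 and AIR1, a gene found through its auxin response, were raised by JA alone at log2 2.72 and 3.94 and in the presence of cytokinin at log2 1.51 and 2.33.

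Germin-like proteins formed a block on chromosome 5. Germins are small secreted proteins of the cupin fold, some of which act as superoxide dismutases in the cell wall. In all, 5 members carry a germin or cupin annotation (9.62% of the members, against 0.168% of the 14846 genes), and 4 of them lie within chr5:15653125-15693735 (TAIR10.1). AT5G39120 had 0.0881 FPKM in control, 13.5 FPKM with JA (interval 12.2 to 14.8), 0 FPKM with cytokinin and 0.0786 FPKM with JA/cytokinin. AT5G39130 had 0, 6.04, 0 and 0.0294 FPKM, and AT5G39160 had 0.707, 8.66, 0.0169 and 0.0151 FPKM. GER2 had 0.828, 11.9, 0.0458 (up to 0.169) and 0.0151 (up to 0.108) FPKM. AT5G39160 and GER2 were thus already present in control, and neither cytokinin library held more than an estimated 3 fragments of any of the 4. The interval holds 4 more germin-like genes, and all of these were also highest with JA but under 5 FPKM: AT5G39110 at 3.07 FPKM, AT5G39150 at 2.40 FPKM, AT5G39180 at 1.42 FPKM and GLP6 at 0.438 FPKM. None of these 4 exceeded 0.0391 FPKM in either cytokinin library. The 2 remaining genes of the interval, AT5G39140 and AT5G39170, both myb-like protein Q, were at 0 FPKM in all libraries. The fifth cupin member, AT4G28703 on chromosome 4, had 1.78, 6.63, 1.2 and 1.94 FPKM and had no such fall with cytokinin.

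**Figure D3:**
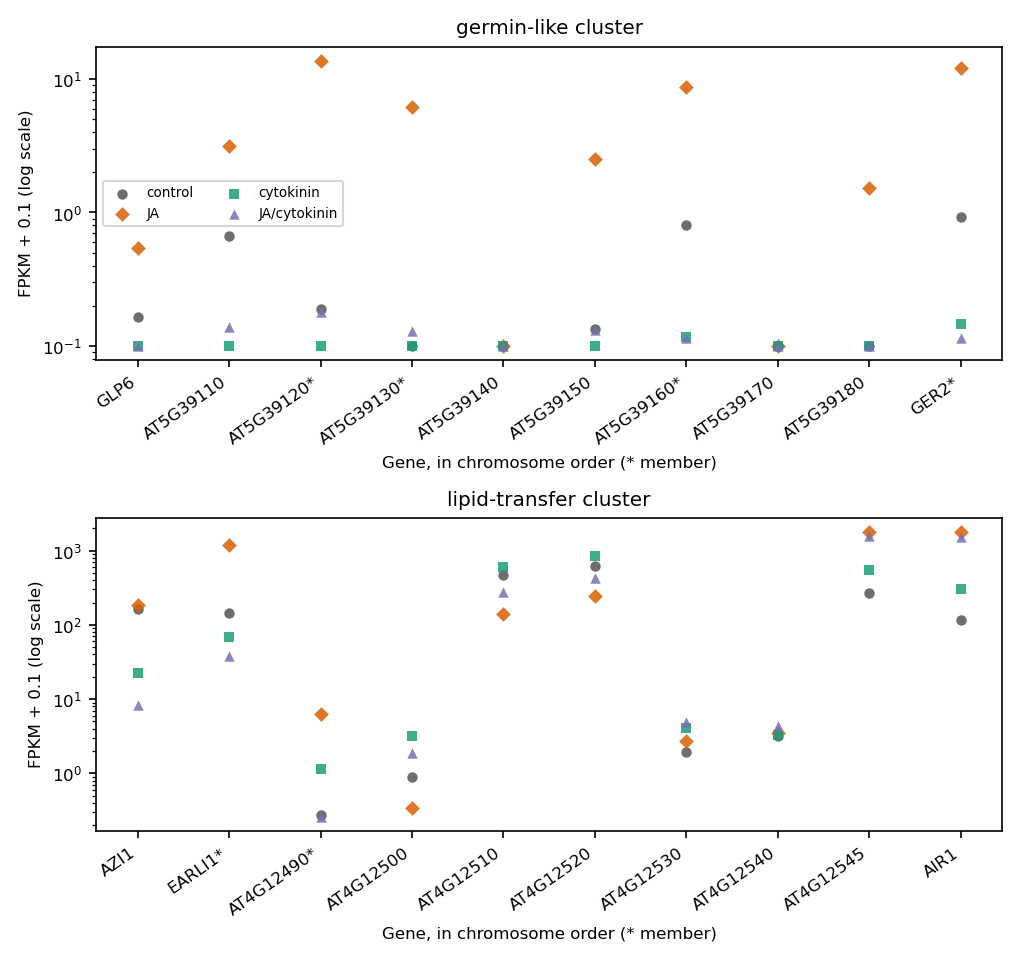
FPKM + 0.1 on a log axis for the genes of the germin-like row on chromosome 5 (upper panel) and the lipid-transfer row on chromosome 4 (lower panel), in chromosome order, 1 point per library, with members starred. In the upper panel JA is highest for all 8 germin-like genes, and in the lower panel EARLI1 and AT4G12490 share the pattern while AT4G12545 and AIR1 are high in both JA libraries.

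The levels of single germin-like genes are uncertain, because their transcripts are near copies. The longest transcripts of AT5G39160 and GER2 were 99.7% identical over 1030 aligned positions, and those of AT5G39130 and GER2 97.3% over 864, so that reads may have been split between them. These are end-to-end alignments with gapped positions left out. By BLAST AT5G39130 and GER2 were 93.0% identical over 900 bases. AT5G39120 was 80.5% to 83.4% identical to the other 3 members by end-to-end alignment. Its nearest relative by BLAST, a different measure, was AT5G39150 at 96.8%. The promoter windows, 250 bases before to 50 after the annotated gene start, followed the same split: those of AT5G39160 and GER2 were 99.3% identical over 282 aligned positions, those of AT5G39120 and GER2 71.5% over 246. One promoter of each kind is shown, from RefSeq TAIR10.1, with the letters TATAAA and the letters CACATG, or their reverse complements, in capitals.
GER2 promoter, chr5:15693686-15693985, minus strand: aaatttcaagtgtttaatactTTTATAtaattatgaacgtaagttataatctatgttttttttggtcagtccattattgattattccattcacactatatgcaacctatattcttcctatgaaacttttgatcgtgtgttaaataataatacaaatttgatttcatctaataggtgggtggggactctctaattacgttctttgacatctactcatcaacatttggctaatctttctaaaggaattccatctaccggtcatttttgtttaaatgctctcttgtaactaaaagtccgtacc
AT5G39120 promoter, chr5:15663478-15663777, minus strand: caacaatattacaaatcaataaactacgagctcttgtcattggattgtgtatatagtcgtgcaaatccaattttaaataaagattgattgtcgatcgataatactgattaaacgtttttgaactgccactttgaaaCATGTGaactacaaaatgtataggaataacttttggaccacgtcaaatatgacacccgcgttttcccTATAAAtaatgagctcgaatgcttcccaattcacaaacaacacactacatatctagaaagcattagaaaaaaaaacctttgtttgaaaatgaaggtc
Neither window held the G-box CACGTG, and AT5G39120 held 1 copy of CACATG, read on the other strand. The TATAAA of GER2 is also read on the other strand.

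A gene of the AHP family was among the most strongly raised members. AHP4, annotated as a histidine phosphotransmitter, had 0.0980 FPKM in control (interval 0.0210 to 0.281), 16.4 FPKM with JA (15.0 to 17.8), 0.585 FPKM with cytokinin (0.351 to 0.918) and 1.18 FPKM with JA/cytokinin (0.848 to 1.59). JA alone stood 12.9-fold above the next library, JA/cytokinin, and the intervals of control and cytokinin did not overlap. The 6 AHP genes were listed after the values were seen. AHP4 was the only one that passed 2-fold in either direction between JA and control, and the rule requires this rise of a member. Between JA/cytokinin and cytokinin AHP4 did not pass 2-fold, and 1 of the 6, AHP6, did so upwards. AHP6 had 1317 FPKM in control, 1176 FPKM with JA, 0.139 FPKM with cytokinin and 0.578 FPKM with JA/cytokinin. Its upward step thus lay between low values, both far below control. AHP4 lies close to the limit of the rule, since JA/cytokinin was 1.86-fold above cytokinin. It overlaps an annotated gene, AT3G03295. Of 9 type-A response regulators none was a member, where 52 of the 14846 genes were members. None of the 9 was at least 2-fold higher with JA than control and 4 were at least 2-fold lower, against 7.87% and 4.93% of the 14846 genes.

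LOX2, the 13-lipoxygenase that opens JA synthesis in leaves, was the only member among 13 JA synthesis genes. It had 0.444 FPKM in control (0.339 to 0.571), 11.9 FPKM with JA (11.3 to 12.5), 0 FPKM with cytokinin (up to 0.0269) and 0.0446 FPKM with JA/cytokinin (0.0176 to 0.0929). In both cytokinin libraries LOX2 was below control with no overlap of the intervals. The summed shoot markers were at 13.19 FPKM in control, 2.506 FPKM with JA, 1.046 FPKM with cytokinin and 2.379 FPKM with JA/cytokinin, and their part in the level of this leaf gene was not tested. Of the 13 synthesis genes 12 were at least 2-fold above control with JA, and 6 were at least 2-fold above cytokinin with JA/cytokinin. The shares of the 14846 genes were 7.87% and 6.90%. LOX2 is among the 12, as the rule requires of a member. Over the 13 genes the median log2 ratios were 1.41 and 0.95. Allene oxide synthase (AOS), the next enzyme, had 11.9, 116.6, 17.3 and 56.2 FPKM. The promoters of AHP4 and LOX2 are printed because AHP4 is of the AHP family and LOX2 acts in JA synthesis. Capitals mark TATAAA in AHP4, read on the other strand, and, in LOX2, CACATG and a W-box (TTGACC or TTGACT) read on the other strand.
AHP4 promoter, chr3:5553947-5554246, plus strand: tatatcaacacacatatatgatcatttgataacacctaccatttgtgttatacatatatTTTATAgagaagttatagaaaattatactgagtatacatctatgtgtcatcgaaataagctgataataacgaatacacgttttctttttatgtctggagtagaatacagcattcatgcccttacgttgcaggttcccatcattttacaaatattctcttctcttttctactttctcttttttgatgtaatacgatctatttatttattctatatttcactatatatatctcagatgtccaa
LOX2 promoter, chr3:16524995-16525294, plus strand: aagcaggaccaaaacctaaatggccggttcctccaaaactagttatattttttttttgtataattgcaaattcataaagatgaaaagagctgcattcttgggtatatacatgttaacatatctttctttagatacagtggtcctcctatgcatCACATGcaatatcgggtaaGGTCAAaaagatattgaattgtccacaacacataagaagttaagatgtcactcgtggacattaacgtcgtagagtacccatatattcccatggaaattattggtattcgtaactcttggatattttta
Neither promoter held CACGTG.

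The listed JAZ repressors and JA output genes were outside the set. LOX2, which the study measured as a JA-induced gene, was a member, whereas JR2 (AT4G23600), measured beside it, was not. JR2 had 0.135, 1.27, 0.0192 and 0.746 FPKM in control, JA, cytokinin and JA/cytokinin. It was thus under the minimum of 5 FPKM, and its log2 ratio of JA/cytokinin to cytokinin was 2.83. None of 12 JAZ repressors was a member: 10 were at least 2-fold higher with JA than control and 9 with JA/cytokinin than cytokinin, with median log2 ratios of 2.97 and 2.54. Over the 14846 genes the shares were 7.87% and 6.90%, and the medians were 0.02 and 0.05. None of 9 output genes of the MYC branch was a member. Against the same shares, 9 were past 2-fold by JA alone and 8 in the presence of cytokinin, at medians of 2.54 and 2.83. JAZ10 had 2.59, 449.1, 6.85 and 259.6 FPKM, and VSP2, a vegetative storage protein, had 0.669, 97.6, 2.54 and 213.5 FPKM. Of 8 genes of the ERF branch, which serves defence with ethylene, none was a member. At least 2-fold higher were 3 with JA than control and 2 with JA/cytokinin than cytokinin, against 7.87% and 6.90% of the 14846 genes. The 3 include PDF1.2, at 0.153 FPKM with JA and 0 FPKM in control, so that its ratio was set by the added 0.1. No member was found among 16 xylem genes, 15 root hair genes, 14 genes of salicylate and pathogen defence, 11 of abscisic acid and drought or 12 of lateral roots and auxin response. Only 52 of the 14846 genes were members, and 8.09% of the 643 raised by JA. An absence from lists of this size therefore carries little weight. Listed genes under 5 FPKM with JA could not be members.

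The transcription factors of the set included NAP, WRKY51 and HB32. NAP, a NAC factor that promotes leaf senescence, had 0.565 FPKM in control (0.375 to 0.817), 12.2 FPKM with JA (11.2 to 13.1), 1.41 FPKM with cytokinin (1.10 to 1.78) and 1.55 FPKM with JA/cytokinin (1.23 to 1.91). The 2 cytokinin libraries had overlapping intervals and both lay above that of control. NAP was the only member among 10 senescence genes, of which 5 were at least 2-fold higher with JA than control and 2 with JA/cytokinin than cytokinin, against 7.87% and 6.90% of the 14846 genes. NAP is among the 5, as the rule requires of a member. ORE1, another NAC factor of senescence, had 15.1, 79.2, 6.78 and 25.1 FPKM and so remained above cytokinin. WRKY51, a WRKY factor, had 5.99, 18.4, 1.96 and 2.67 FPKM. HB32, a homeobox protein, had 1.37, 5.10, 0.409 and 0.826 FPKM. Both WRKY51 and HB32 were lower in the 2 cytokinin libraries than in control. RTFL12, a small peptide of the ROTUNDIFOLIA family, had 3.05, 21.1, 5.81 and 4.02 FPKM, with both cytokinin libraries above control.

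Several members are enzymes. ASN1, the asparagine synthase known for its induction in darkness and sugar starvation, had 8.31 FPKM in control, 66.8 FPKM with JA, 13.0 FPKM with cytokinin and 19.0 FPKM with JA/cytokinin. PCK2, a phosphoenolpyruvate carboxykinase that feeds gluconeogenesis, had 18.4, 92.3, 19.2 and 26.7 FPKM. BCAT-2, an aminotransferase of branched-chain amino acids, had 3.10, 9.97, 1.26 and 1.57 FPKM. ASN1 and PCK2 thus were highest with JA/cytokinin among the other libraries, whereas BCAT-2 was highest in control. Their closest relatives were not members. PCK1 had 90.3, 255.0, 64.2 and 127.3 FPKM, ASN3 had 26.0, 21.5, 24.5 and 25.6 FPKM and BCAT3 had 57.5, 69.3, 61.9 and 66.8 FPKM. Of these relatives only PCK1 was past 2-fold above control with JA. Like PCK2, PCK1 was highest with JA and higher with JA/cytokinin than with cytokinin. XTH24, a xyloglucan endotransglucosylase/hydrolase that remodels the cell wall, had 21.1, 83.5, 21.6 and 11.5 FPKM, with JA/cytokinin the lowest. Of 11 genes of the dark and sugar starvation response, a list added after the values were seen, ASN1, XTH24 and BCAT-2 were members. At least 2-fold higher were 5 with JA than control and 1 with JA/cytokinin than cytokinin, against 7.87% and 6.90% of the 14846 genes. The 5 include these members, for which the rule set both ratios, so that the shares cannot be compared. The rest of the 5 were DIN2 and DIN11, at log2 2.23 and 9.87. DIN11 was also the 1 raised in the presence of cytokinin, at log2 8.59. In the other direction 1 of the 11 was at least 2-fold lower with JA than control and 2 with JA/cytokinin than cytokinin, against 4.93% and 3.54%.

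NAS4, a nicotianamine synthase whose product binds iron and other metals for transport, had 3.60 FPKM in control (3.13 to 4.12), 76.8 FPKM with JA (74.6 to 79.0), 5.47 FPKM with cytokinin (4.88 to 6.10) and 8.47 FPKM with JA/cytokinin (7.78 to 9.21). No intervals overlapped, and the order was control, cytokinin, JA/cytokinin and JA. Its family members went other ways: NAS1 had 154.3, 46.1, 9.70 and 5.75 FPKM, NAS2 had 70.5, 17.7, 5.64 and 12.5 FPKM, and NAS3 was at 0 FPKM in all libraries. In a list of 16 iron deficiency genes added after the values were seen, NAS4 was the only member. JA against control passed 2-fold upwards in 2 and downwards in 5 of the 16, and JA/cytokinin against cytokinin upwards in 1 and downwards in 6. Over the 14846 genes the same shares were 7.87% and 4.93%, and 6.90% and 3.54%. NAS4 is among the 2 raised by JA, as the rule requires of a member.

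CYP83A1, a cytochrome P450 of aliphatic glucosinolate synthesis, had 23.2, 89.7, 12.5 and 23.9 FPKM. JA/cytokinin was 1.91-fold above cytokinin, nearest of all members to the limit of 2, and was close to control. CYP83B1, its relative for indole glucosinolates, had 123.1, 86.8, 196.4 and 275.2 FPKM and was highest with JA/cytokinin. AT3G44970, a cytochrome P450 of unassigned substrate, had 1.52 FPKM in control (1.26 to 1.81), 7.99 FPKM with JA, 0.0172 FPKM with cytokinin and 0 FPKM with JA/cytokinin (up to 0.0413). It had the lowest ratio of cytokinin to control in the set, at log2 -3.79. GLYI4, a glyoxalase I family protein of methylglyoxal detoxification, had 86.5, 329.3, 31.7 and 52.4 FPKM, and its relative GLYI7 had 0.980, 18.6, 1.76 and 4.43 FPKM. GSTF3, a glutathione transferase, had 0.769, 5.61, 0.113 and 0.192 FPKM, while GSTF2, 92.9% identical over the aligned bases, was far higher at 203.9, 440.7, 86.2 and 118.5 FPKM. A misassigned share of GSTF2 reads could move GSTF3 and was not tested. BGLU5, a beta-glucosidase, had 0.511, 5.34, 0.223 and 0.115 FPKM, and SCPL7, a serine carboxypeptidase-like protein, had 2.34, 11.1, 0.162 and 0.352 FPKM.

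M10 and AT4G38410 belong to the late embryogenesis and dehydrin proteins that protect cells during water loss. M10 had 0.607, 26.7, 1.11 and 1.85 FPKM, and AT4G38410, a dehydrin family protein, had 8.67, 36.4, 8.59 and 7.14 FPKM. Beside M10 stand the seed markers given above, which were also higher with JA, and their part in its level was not tested. M10 was low in control and somewhat higher in both cytokinin libraries, while AT4G38410 was level across the 3 libraries without its JA peak. Another 4 genes, described only as uncharacterized proteins, had at least 20 FPKM with JA and were not at 0 in all other libraries. AT2G14247 had 61.5, 196.6, 9.42 and 13.0 FPKM, and AT2G30766 had 19.1, 176.6, 11.8 and 11.2 FPKM. AT1G21528 had 0, 25.6, 1.80 and 2.40 FPKM, and AT1G65500 had 0.310, 21.7, 1.48 and 1.54 FPKM. The first pair was highest in control among the other libraries, and the second pair was lowest there. AT2G14247 and AT2G30766 overlap other annotated genes. AT1G14250, of the GDA1/CD39 nucleoside phosphatase family, had 5.72 FPKM with JA, 0 FPKM in control, 0.0652 FPKM with cytokinin and 0.1 FPKM with JA/cytokinin. DMP1, a membrane protein with a DUF679 domain, had 0.197, 5.54, 0.688 and 0.531 FPKM. The remaining 9 members had 5.41 to 17.6 FPKM with JA. They are a jacalin lectin (AT1G33790), a protein annotated as a Mediator subunit (AT1G15010), a major facilitator protein (AT3G05155), a protein named for cotton fibres (AT5G57510), a copper transport family protein (AT5G52670), an NmrA-like protein (AT1G19540), a DUF761 protein (AT4G04990), a pseudogene (AT4G04410) and EP1, a protein related to receptor-like kinases. With cytokinin AT5G57510 was above control, at log2 1.21, and AT4G04410 below it, at log2 -1.77.

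How the genes stood with cytokinin relative to control was fixed by the rule only in part, through the limit that both lie at least 3-fold under JA. The members split into genes lower and genes higher than control. Cytokinin was at least 2-fold below control in 17 of 52 (32.7%, against 6.94% of the 14846 genes) and at least 2-fold above control in 8 (15.4%, against 2.01%). JA/cytokinin was at least 2-fold below control in 14 (26.9%, against 7.71%) and at least 2-fold above control in 12 (23.1%, against 7.59%). With a pseudocount of 1 in place of 0.1, which shrinks ratios of low genes, cytokinin was at least 2-fold above control in 1 of 78 genes and JA/cytokinin in 5. These shares cannot be read alone, since the median level of the members was 0.914 FPKM in control and 0.998 FPKM with cytokinin, against 19.7 and 19.1 FPKM for the 14846 genes, and ratios of low genes scatter more. The scatter of the cytokinin to control log2 ratio over all genes of a given FPKM also holds true differences. It was 0.26 at the highest levels, 0.81 in the second lowest of 10 FPKM groups and 0.56 in the lowest. Against this level-matched spread, 23 of the 45 members were lower with cytokinin than control (51.1%, against 19.4% of the 14846 genes), 12 were higher (26.7%, against 17.2%) and 10 lay inside (22.2%, against 63.4%).

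**Figure D4:**
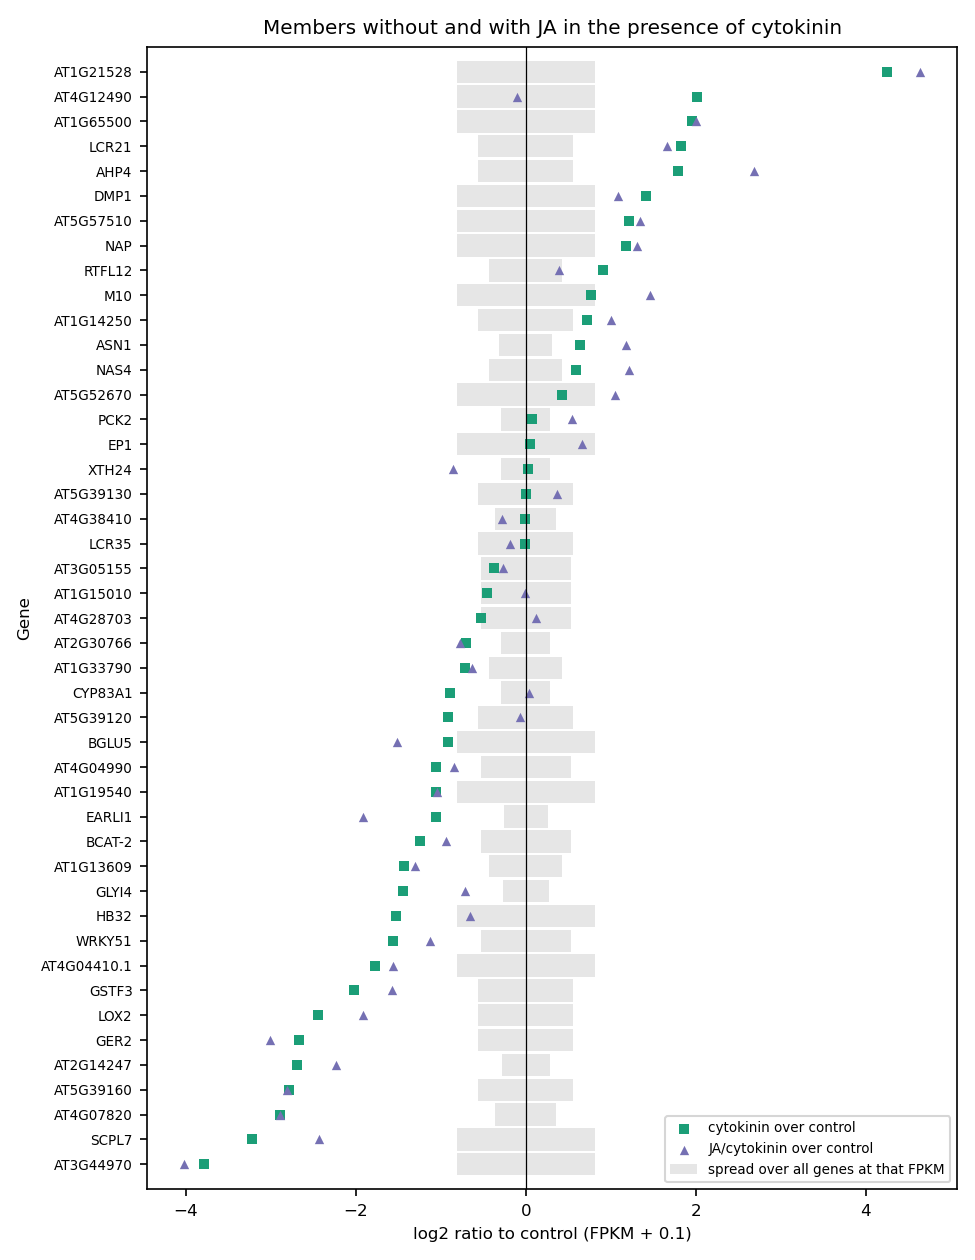
Log2 ratios to control on FPKM + 0.1 for the 45 members not at 0 in all 3 other libraries, with cytokinin as squares and JA/cytokinin as triangles, in order of the cytokinin ratio, and grey bars for the spread over all genes at that FPKM. Squares run from -3.79 (AT3G44970) to 4.25 (AT1G21528, at 0 FPKM in control). The bars use the FPKM of cytokinin and control. With the spread taken at the FPKM of cytokinin and JA/cytokinin instead, which is not drawn, 27 triangles lie no farther than it from their squares.

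The genes well below control with cytokinin were AT3G44970, SCPL7, AT4G07820, AT5G39160, AT2G14247, GER2, LOX2 and GSTF3, at log2 -3.79 to -2.02, and their JA/cytokinin levels were also below control, at log2 -4.02 to -1.57. The genes above control beyond the spread included AHP4, NAP, ASN1, NAS4, RTFL12, DMP1 and AT1G65500, at log2 0.59 to 1.95. The ratio of JA/cytokinin to cytokinin was set against the cytokinin to control spread at the FPKM of these libraries. Inside it lay 27 of the 45 members (60.0%, against 48.0% of the 14846 genes), 13 were above it and 5 below it, but that ratio was capped by the rule.

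The G-box, the sequence at which MYC2 and other bHLH or bZIP factors bind, was present in some promoters of the set. Promoter windows of 300 bases were available for 47 members and 27443 genes in all. CACGTG was found in 8 of the 47 (17.0%), in 7.68% of all windows and in 10.0% of those of the genes raised by JA in both comparisons. Each G-box is shown with 12 bases on either side, with the box in capitals and its first base placed relative to the gene start, from RefSeq TAIR10.1 on the gene strand.
CYP83A1, 43 bases before the gene start, chr4:7992455-7992484, minus strand: tattaattctaaCACGTGaggtttcgtaag
ASN1, 167 bases before the gene start, chr3:17441581-17441610, minus strand: ttgtcgtgataaCACGTGtacggctctaaa
ASN1, base 37 after the gene start, chr3:17441378-17441407, minus strand: aaggttaattaaCACGTGgaaacagctggt
M10, 207 bases before the gene start, chr2:17209478-17209507, plus strand: accactggtggaCACGTGtaaacacgatag
AT1G21528, 118 bases before the gene start, chr1:7543178-7543207, minus strand: attatacaaggcCACGTGagggaaatagca
AT1G65500, base 5 after the gene start, chr1:24357741-24357770, plus strand: aaaccgcattcaCACGTGaaactttgaaat
WRKY51, 90 bases before the gene start, chr5:25908145-25908174, plus strand: ttccttttttcaCACGTGgcattgaagcac
NAP, 242 bases before the gene start, chr1:26121826-26121855, plus strand: atacttttaggtCACGTGtttagaggtgaa
BGLU5, 63 bases before the gene start, chr1:22221479-22221508, minus strand: tatttatttcaaCACGTGttacacacttta
ASN1 held 2 copies, and in CYP83A1, WRKY51 and BGLU5 the box lay within 100 bases before the gene start. In the set these 8 genes covered levels with JA from 5.34 FPKM (BGLU5) to 89.7 FPKM (CYP83A1). The single-base variant CACATG, counted on both strands, was found in 9 of 47 (19.1%), in 12.9% of all windows and in 24.0% of those raised in both. The W-box, TTGACC or TTGACT, was found in 18 (38.3%, against 32.4%) and TATAAA in 30 (63.8%, against 52.1%). The GCC-box GCCGCC and AGATACG, a sequence bound by type-B response regulators, were found in none of the 47, against 2.57% and 2.04% of all windows. A match is only a match of letters in a fixed window.

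Taken over all 52, the members were short genes. This includes the 7 genes at 0 FPKM in the other 3 libraries, of which 5 have exons under 250 nt. Lengths of the other 45 alone were not summarised. Their median exon length was 972 nt over 51 members, against 1700 nt over 14789 genes, and their median coding length was 585 nt against 1077 nt. A single exon was annotated in 37.3% of members, against 13.3% of the 14789 genes with an annotation, and 11 of 47 coding members (23.4%, against 4.24%) had under 300 nt of coding sequence. In all, 13 members, among them EARLI1, AT4G12490 and ASN1, overlap another annotated gene, with which unstranded reads could be shared. The members lay on all 5 chromosomes, with 14, 6, 9, 12 and 10 on chromosomes 1 to 5, and AT5G39120 and AT5G39130 were the only pair of members with no other annotated protein-coding gene between them. EARLI1 and AT4G12490 did not count as such a pair, and EARLI1 overlaps AT4G12485 on the opposite strand.

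The genes nearest to each limit of the rule were as follows. HB32 with 5.10 FPKM and BGLU5 with 5.34 FPKM were the lowest members with JA, and AT1G67865, just under 5 FPKM, and AT1G12030 at 4.96 FPKM were left out. WRKY51, 3.03-fold above control, and BCAT-2, 3.15-fold, were kept, and AT2G27830, just under 3-fold, and CYP72A8, 2.98-fold, were not. RTFL12 and XTH24 were 3.58-fold and 3.86-fold above cytokinin, while AT4G34380 and CAF1a missed at 2.99-fold and 2.84-fold. AT4G28703 and PCK2 were 3.3-fold and 3.45-fold above JA/cytokinin, and IMS2 and AT3G17110 missed at 2.95-fold and 2.88-fold. CYP83A1 and AHP4 had JA/cytokinin 1.91-fold and 1.86-fold above cytokinin, and ERF-1 and MGL, at 2.05-fold and 2.07-fold, were left out.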

How the data were processed

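Total RNA from whole roots was polyA-selected, made into libraries with the TruSeq RNA kit, and sequenced as paired reads by the authors, who calculated FPKM with Cufflinks. Bowtie and TAIR10 are listed in the submitters' processing notes, and other settings are not given in the sources used here. The deposited FPKM table has 1 value per gene and library. The deposited read count per library, before alignment, gives 101 bases per read; the percent columns deposited beside it carry no names and were not used. Columns were matched to conditions by name, with 1 library each, so that no samples were averaged and no test was run. The members and the gene lists were chosen with earlier results of these data known.

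Ratios were taken on FPKM + 0.1, and the limits were 5 FPKM, 3-fold and 2-fold as described. Fragments were estimated from the FPKM step of 1 fragment over 21669 genes with 1 transcript, with a fragment length of 160 nt, and not for exons under 250 nt. The spread is the scaled median absolute deviation of cytokinin to control log2 differences in 10 groups of genes by FPKM. Sequences and annotation came from RefSeq TAIR10.1, whose nuclear chromosomes have the TAIR10 lengths; 32818 loci of the table were found in it. Closest relatives were found with BLAST. Transcripts and promoter windows of the germin-like members were compared in pairs by end-to-end alignment, with identity taken over positions without a gap. Genes named are the 10 highest with JA, the 10 largest ratios, list and family members, neighbours and those nearest to each limit; all other genes, relatives included, were chosen after their values were seen. The tools were pandas 2.3.3, numpy 2.4.6, scipy 1.17.1 and matplotlib 3.10.9 under Python 3.11.15, and the steps were tested on simulated data.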

Additional observations from a re-analysis of the deposited data

Results flagged for a closer look

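For 5 of 45 members (11.1%) JA raised the level without cytokinin and lowered it with cytokinin beyond the cytokinin to control spread at that FPKM. Of the 14846 genes 23.1% were lower by the second measure, whatever JA did alone, and for members the rule capped that ratio. Among the 643 genes raised at least 3-fold by JA, members included, 28 had JA/cytokinin at or below cytokinin by any distance. With 1 library per condition the difference was not tested. The log2 ratio of JA/cytokinin to cytokinin was -2.12 for AT4G12490, -0.90 for XTH24, -0.85 for EARLI1, -0.59 for BGLU5 and -0.52 for RTFL12, while their log2 ratios of JA to control were 4.51, 1.98, 3.03, 3.16 and 2.75. For AT4G12490 an estimated 29.1 fragments with cytokinin and 5 with JA/cytokinin lie behind the values, and for BGLU5 14.9 and 8.52. The intervals of BGLU5 overlap, at 0.124 to 0.368 FPKM with cytokinin and 0.0513 to 0.222 FPKM with JA/cytokinin. AT4G12490 and EARLI1 both lie in the lipid-transfer row on chromosome 4.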

How the results depend on the processing

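No paired analysis was possible because there was 1 library per condition, which also left no replicate to leave out. The set had 78 genes with a pseudocount of 1 (45 of the 52 members shared), 32 with a minimum of 10 FPKM, 156 and 36 with 2-fold and 4-fold limits, 185 without the limit on JA/cytokinin over cytokinin, 59 and 58 after rescaling by the median ratio and by a trimmed mean (all 52 shared), 38 with FPKM above 0 in all 4 libraries, and 54 with the minimum applied to FPKM + 0.1. The members with cytokinin at least 2-fold below control were 9 with a minimum of 10 FPKM, 39 and 10 with 2-fold and 4-fold limits and 95 without the last limit, and for JA/cytokinin they were 8 with the minimum, 26 with 2-fold and 29 without the last limit. The cause was not tested. The median log2 ratio of cytokinin to control, -0.01 over all 52, was -0.30 with a pseudocount of 1, -0.42 with 2-fold, -1.06 without the last limit, -0.38 and -0.36 after rescaling by the median ratio and by the trimmed mean, -0.61 with FPKM above 0 in all libraries and -0.53 without the 7 genes at 0 in 3 libraries, the last an alternative chosen after seeing the data. Members with cytokinin at least 2-fold above control, 8 of 52, were 1 with a pseudocount of 1, 5 with a minimum of 10 FPKM and 15 with 2-fold limits; for JA/cytokinin, 12 of 52, they were 5 with a pseudocount of 1, 21 with 2-fold limits and 73 without the last limit. The median of JA/cytokinin to cytokinin, 0.13, was 0.41 with 2-fold limits and 1.74 without the last limit. The alternatives for these 3 results were also chosen after seeing the data. The median of JA/cytokinin to control, -0.04, was 0.38 without the last limit and -0.45 with FPKM above 0 in all libraries. With a pseudocount of 1 the JA library was less than 3-fold above the highest other library in 7 of 52 members, at 2.58-fold or more, and after either rescaling in none. Large ratios shrank with that pseudocount, from 72.2-fold to 13.3-fold in AT5G39120 and from 12.9-fold to 7.98-fold in AHP4.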
